A study of Mus musculus with 12 samples.

Results

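The SLAM family receptors and the adaptor proteins that bind their tails were followed in resting B cells and naive T cells of the mouse spleen. The 8 genes Slamf1, Slamf6, Slamf7, Cd48, Cd84, Ly9, Sh2d1a and Sh2d1b1 were taken by name from a table of 41128 genes. Earlier results of these data were known when they were chosen. The table has a row for 7 of the 8 genes, and all 7 passed the filter on low values, which kept 12520 genes with at least 1 adjusted TPM in at least 3 libraries. Sh2d1b1 has no row under its own name and is described below from the row of its neighbour Sh2d1b2. The donors were C57BL/6J mice, 6 to 8 weeks old, with no stated transgene or treatment, and the tissue was spleen throughout. They form 4 groups of 3: CD43- resting B cells from females (1 to 3), the same cells from males (1 to 3), CD4+CD62L+ naive T cells from females (4 to 6) and from males (4 to 6). Magnetic enrichment of the T cells was followed by a flow sort on CD62L (high), CD44 (low) and CD25 (absent). Each replicate is a pool of mice, so p-values measure the spread between pools.

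SLAM receptors are surface proteins of the immunoglobulin superfamily on blood cells, and most of them bind the same receptor on a neighbouring cell. Their cytoplasmic tails carry tyrosine motifs that recruit the small SH2-domain adaptors SAP (encoded by Sh2d1a) and EAT-2 (Sh2d1b1), and SAP in turn brings in the kinase Fyn. When SAP is lacking, the same motifs can recruit inhibitory phosphatases, and loss of human SAP causes X-linked lymphoproliferative disease. In the spleen the family is best known for contacts between T cells and B cells in germinal centres.

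TPM is a length-corrected share of transcripts, so levels can be set side by side between genes. How the deposited values were adjusted is not given in the sources used here, and their totals differ between libraries. A difference is given as B minus T cells on the log2(adjusted TPM + 1) scale, which understates the change of low genes. Genes are called when the limma adjusted p (Benjamini-Hochberg over the 12520 genes) is under 0.05. Between 11122 and 11543 genes per library had at least 1 adjusted TPM, while those totals ran from 561020 to 1453940. The noncoding Yam1 made up 37.4% of the total in male T cell 6 and 32.2% in female B cell 1. In female T cell 6 the top gene, Rn7sk, made up 11.4%. Rescaling to a common total therefore depends in part on such a gene. Sequencing depth is unknown. The cell labels were checked against marker genes. The 4 B cell markers summed to between 2220 and 2643 adjusted TPM in B cells, against no more than 4.91 in T cells. The 5 T cell markers summed to between 1017 and 1194 in T cells, against no more than 14.1 in B cells. Lists of other cells were mixed. The 3 platelet markers summed to between 4.05 and 16.9 in B cells, against no more than 0.612 in T cells. Of the CD8 T cell markers, Cd8b1 was higher in T cells (5.25 to 8.11) and Cd8a in B cells (0.591 to 2.31). Of 5 markers of activated and follicular helper T cells, 2 were higher in T cells, with Icos at 11.1 to 16.7, and 3 in B cells.

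Between the cell types, Slamf7 and Slamf1 were higher in B cells, Cd84 and the adaptor Sh2d1a were higher in T cells, and Slamf6, Cd48 and Ly9 did not pass the test. Thus 4 of 7 genes were called, 2 in each direction, where 73% of all tested genes were called, 31.4% with the B cells higher and 41.6% with the T cells higher. For the same 4 genes no B cell library fell within the range of the T cell libraries or the reverse, against 53.9% of all tested genes. The median difference was -0.10 for the 7 genes and -0.09 for all tested genes. In whole-population RNA, fewer cells that carry a transcript and less of it per cell cannot be told apart.

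**Figure D1:**
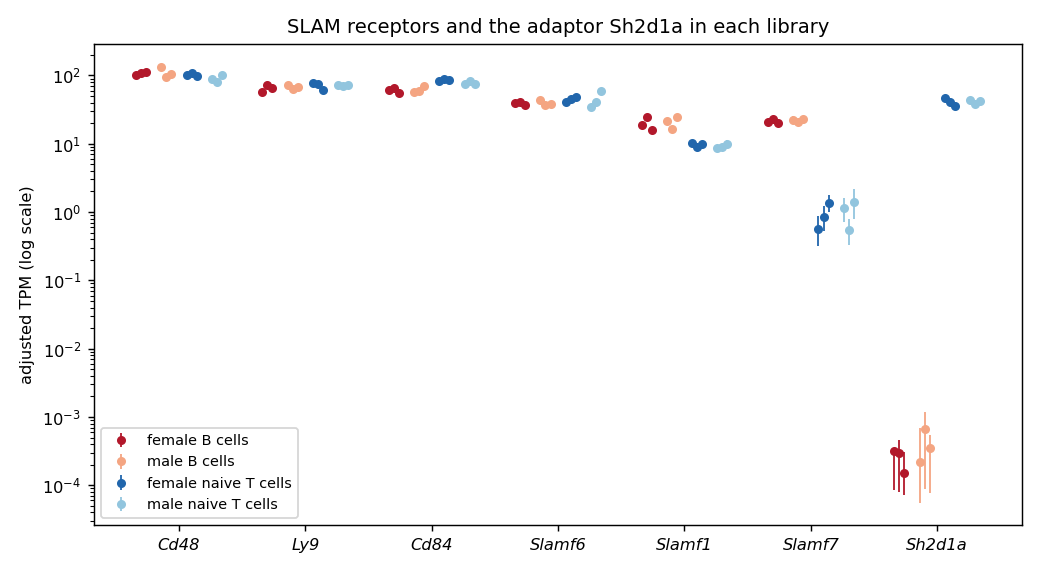
Adjusted TPM (log scale) of 6 SLAM receptors and the adaptor Sh2d1a, 1 point per library, coloured by group, with the lower and upper bounds of the deposited interval as bars. The B and T cell points separate widely for Slamf7 (20.1 to 23 against 0.537 to 1.39) and Sh2d1a (at most 0.000665 against 36 to 46.9) and lie closer together for Cd48, Ly9, Cd84 and Slamf6.

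Slamf7 (CRACC, ENSMUSG00000038179.8; GRCm38 chromosome 1, 171632403 to 171653035, minus strand) encodes a self-binding receptor known from NK cells and plasma cells that signals through EAT-2. Its level was 20.6, 23 and 20.1 adjusted TPM in female B cells and 22.6, 20.5 and 22.7 in male B cells. It was 0.573, 0.842 and 1.36 in female T cells and 1.13, 0.537 and 1.39 in male T cells. Every B cell library was far above every T cell library. The B cell mean was 21.6 ± 1.31 (SD, n = 6) and the T cell mean 0.971 ± 0.377 (SD, n = 6), a ratio of 22.2. On the log2 scale the difference was 3.54 (SE 0.12, adjusted p = 1.4e-11), larger in size than for 96.7% of the tested genes. The T cell values were less precise, with an upper bound up to 2.73 times the lower. Lists of other Slamf7-bearing cells differed too, in both directions. Of 4 plasma cell markers 3 were higher in B cells, as were 31.4% of all tested genes. Prdm1 went the other way, with 0.521 to 0.932 adjusted TPM in B cells and 1.31 to 1.96 in T cells. The plasma cell list summed to between 100 and 185 in B cells, mostly from Igj (50.7 to 131) and Xbp1. In T cells it summed to between 26.7 and 33.3. The myeloid list summed to between 11.3 and 17 in B cells and between 2.68 and 6.26 in T cells, with Siglech near 0 in all libraries. The NK cell list summed the other way, from 1.71 to 3.8 in B cells against 32.9 to 41.5 in T cells, mostly from Klrd1 and Prf1. Its members were split. Ncr1 (0.0264 to 0.584 in B cells, 0.00339 to 0.0137 in T cells) was higher in B cells. So was Klrb1c (0.095 to 0.248 against 0.00436 to 0.0415), and Nkg7 and Gzma overlapped. The part of such cells in the difference was not tested.

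The 250 bases before the RefSeq start of Slamf7 are shown because this receptor had the largest B cell excess on the log2 scale among the 6 receptors (GRCm38.p6, chr1:171649000-171649249, minus strand, written 5′ to 3′ along the gene). This start lies inside the longer GENCODE span given above. Capitals mark GGAA, the core letters bound by ETS factors, or TTCC, its form on the other strand.
Slamf7: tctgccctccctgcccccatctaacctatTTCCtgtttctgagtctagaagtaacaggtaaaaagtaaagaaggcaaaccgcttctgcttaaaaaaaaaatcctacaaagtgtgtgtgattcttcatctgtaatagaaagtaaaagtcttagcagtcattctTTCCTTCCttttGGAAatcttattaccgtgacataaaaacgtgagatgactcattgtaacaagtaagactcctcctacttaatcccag
It holds 4 such cores, where the promoters of Slamf1, Cd84, Cd48 and Slamf6 hold 5, 5, 2 and 0, and the median of 32851 RefSeq promoters is 3. At least 1 core stands in 93.4% of all promoters, so its presence sets none of these genes apart. Each of these 5 promoters held 1 E-box (CANNTG, in 66.2% of all promoters). Both motifs were searched on both strands.

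Slamf1 (SLAM or CD150, ENSMUSG00000015316.10; chromosome 1, 171767127 to 171801184, plus strand) is the founding member of the family and binds itself. Its level was 18.5, 24.4 and 15.8 adjusted TPM in female B cells and 21.6, 16.7 and 24.8 in male B cells. It was 10.4, 8.92 and 9.83 in female T cells and 8.69, 9.02 and 9.92 in male T cells. The B cell libraries were all higher and also more scattered than the T cell libraries. The means were 20.3 ± 3.88 (SD, n = 6) and 9.46 ± 0.668 (SD, n = 6), with a difference of 1.01 (SE 0.11, adjusted p = 2.6e-06) and a 95% interval from 0.77 to 1.25. The spread of Slamf1 within groups (SD 0.188 on the log2 scale) was above the median of all tested genes (0.134).

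Cd84 (SLAMF5, ENSMUSG00000038147.8; chromosome 1, 171839697 to 171890718, plus strand) encodes a self-binding receptor that helps to hold T and B cells together. Its level was 61.6, 66.5 and 56.1 adjusted TPM in female B cells and 57.8, 59.6 and 69 in male B cells. It was 82.2, 89.4 and 85.3 in female T cells and 75.4, 83.3 and 75.4 in male T cells. All T cell libraries were above all B cell libraries, by a small margin. The means were 61.8 ± 5.05 (SD, n = 6) and 81.8 ± 5.54 (SD, n = 6), and the difference was -0.40 (SE 0.06, adjusted p = 7.6e-05). This call depended on the scaling between libraries: when each library was brought to a total of 1000000, the difference was -0.02 (adjusted p = 0.93). That setting moved the median of all tested genes from -0.09 to 0.25, and the share of calls that were higher in B cells from 43% to 70.8%, with 50.1% under median-ratio scaling.

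Slamf6 (Ly108, ENSMUSG00000015314.5; chromosome 1, 171917515 to 171953170, plus strand) is a self-binding receptor of T, B and NK cells. Its level was 39.1, 41.4 and 37.2 adjusted TPM in female B cells and 44, 37.2 and 38 in male B cells. It was 40.3, 45.7 and 48.8 in female T cells and 34.5, 40.7 and 58.7 in male T cells. The T cell libraries spread on both sides of the B cell libraries, and the 2 extremes were male T cell 4 and male T cell 6. The means were 39.5 ± 2.68 (SD, n = 6) and 44.8 ± 8.42 (SD, n = 6), with a difference of -0.16 (SE 0.11, adjusted p = 0.2) and a 95% interval from -0.40 to 0.08. The value rested on those 2 libraries: without male T cell 4 the difference passed the test at -0.24 (adjusted p = 0.037), and without male T cell 6 it shrank to -0.06 (adjusted p = 0.51). Its sign turned to 0.21 when libraries were rescaled to a total of 1000000.

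Cd48 (SLAMF2, ENSMUSG00000015355.8; chromosome 1, 171682009 to 171705258, plus strand) encodes a lipid-anchored protein without a signalling tail that serves as a ligand of CD244 and of CD2. Its level was 103, 108 and 111 adjusted TPM in female B cells and 132, 94 and 104 in male B cells. It was 101, 108 and 98.5 in female T cells and 87.3, 79.1 and 103 in male T cells. The ranges overlapped, with male B cell 1 at the top and male T cell 5 at the bottom. The means were 109 ± 12.9 (SD, n = 6) and 96.2 ± 10.9 (SD, n = 6), and the difference was 0.17 (SE 0.09, adjusted p = 0.089) with a 95% interval from -0.02 to 0.36. It passed the test in 5 of 21 alternatives, all higher in B cells: the median-ratio (0.26), total (0.55) and quantile (0.23) scalings, and without male B cell 2 (0.23) or male T cell 6 (0.23). Without male B cell 1 it shrank to 0.10 (adjusted p = 0.22), and in the female libraries alone to 0.07 (adjusted p = 0.47).

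Ly9 (SLAMF3 or CD229, ENSMUSG00000004707.9; chromosome 1, 171588624 to 171607410, minus strand) is a self-binding receptor of lymphocytes. Its level was 58, 73 and 64.8 adjusted TPM in female B cells and 73.5, 63.1 and 66.9 in male B cells. It was 77.2, 75.9 and 61.1 in female T cells and 71.3, 69.5 and 72.1 in male T cells. The cell types overlapped over most of their range. The means were 66.6 ± 5.98 (SD, n = 6) and 71.2 ± 5.73 (SD, n = 6), with a difference of -0.10 (SE 0.07, adjusted p = 0.26) and a 95% interval from -0.26 to 0.07. That interval leaves room for small differences in either direction, and the sign turned to 0.28 with libraries rescaled to a total of 1000000. Ly9 overlaps Cd244a on the opposite strand, which reached 1.54 in B cells but 0.187 in T cells.

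**Figure D2:**
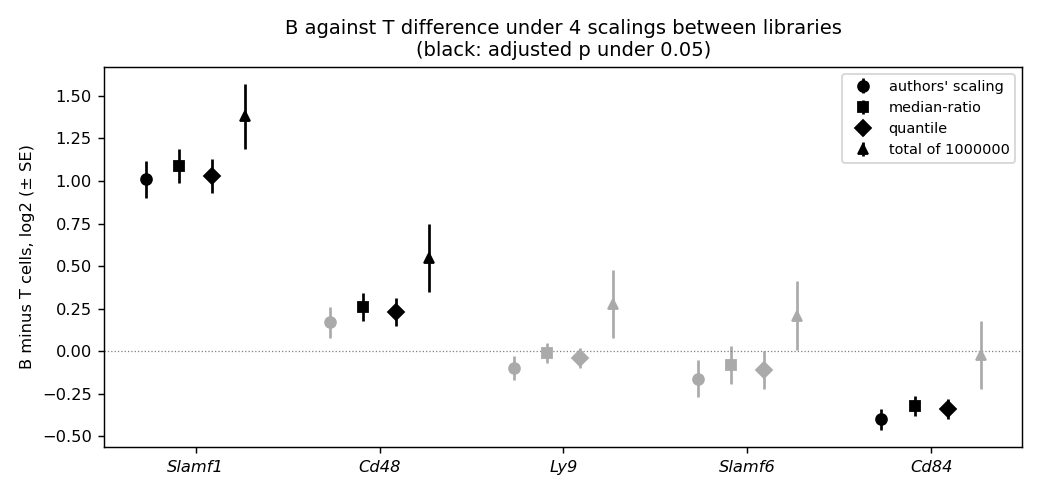
Difference between B and T cells on the log2 scale (vertical axis, ± SE) for 5 receptors under the authors' scaling and 3 other scalings of the 12 libraries, with black symbols for an adjusted p under 0.05. Slamf1 stays called under all 4, Cd48 is called under the 3 others, and Cd84 moves from -0.40 to -0.02 with libraries rescaled to a total of 1000000.

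The 6 receptors together had overlapping totals in the 2 cell types on the authors' scaling, and different shares. Other scalings were not applied to these totals, so whether the overlap holds under them was not tested. The summed level of the receptors in B cells was 318 ± 23.2 (SD, n = 6) adjusted TPM, from 291 to 351. In T cells it was 304 ± 20.5 (SD, n = 6), from 278 to 329. Cd48 was the largest share in both, with 34.1% in B cells and 31.5% in T cells. Slamf7 made up 6.78% of the receptor total in B cells and 0.319% in T cells, Slamf1 6.35% and 3.11%, and Cd84 19.5% and 26.9%. Ly9 took 20.9% and 23.4% and Slamf6 12.4% and 14.7%.

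In B cells the order of levels was Cd48, Ly9, Cd84, Slamf6, Slamf7 and Slamf1. The ranges over libraries overlapped between Ly9 and Cd84 and between Slamf7 and Slamf1, and the other neighbours in this order were separate. In T cells the order was Cd48, Cd84, Ly9, Slamf6, Sh2d1a, Slamf1 and Slamf7. There Cd48, Cd84 and Ly9 overlapped from each to the next, as did Slamf6 and Sh2d1a. Among 21397 protein-coding genes, Cd48 stood at percentile 97.7 (B cells) and 97.2 (T cells) of level, and Slamf7 at 83.4 and 54.9.

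The adaptor SAP was a T cell transcript in these libraries. Sh2d1a (ENSMUSG00000005696.6; chromosome X, 42502453 to 42529330, plus strand) had 46.9, 40.3 and 36 adjusted TPM in female T cells and 44.3, 38.6 and 42.6 in male T cells. In female B cells it had 0.000314, 0.000299 and 0.000149, and in male B cells 0.000223, 0.000665 and 0.000353. The transcript was at the floor of the table in every B cell library, where the highest upper bound was 0.00117. The T cell mean was 41.4 ± 3.95 (SD, n = 6), about the level of Slamf6 in the same cells. The difference was -5.40 (SE 0.07, adjusted p = 1.1e-15), larger in size than for 98.8% of the tested genes, and its value is set by the pseudocount on the B cell side. The gene met the filter on low values in the T cells alone. Sh2d1a overlaps Tenm1 on the opposite strand, which had at most 0.242 adjusted TPM in T cells. SAP is also made by NK cells, and the 6 NK cell markers summed to between 32.9 and 41.5 adjusted TPM in T cells and between 1.71 and 3.8 in B cells. That sum came mostly from Klrd1 (15.9 to 24 in T cells) and Prf1 (11.5 to 17.6). Ncr1 had at most 0.0137 in T cells and from 0.0264 to 0.584 in B cells, and Klrb1c was also higher in B cells. Nkg7 (0.0741 to 0.561 in T cells, 0.0609 to 0.203 in B cells) overlapped. Gzma overlapped too, with 0.433 to 0.699 in T cells and 0.1 to 0.589 in B cells. Zbtb16, the only NKT cell marker listed, had at most 0.0226. The part of NK or NKT cells in the Sh2d1a level was not tested.

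The adaptor EAT-2 could not be read on its own. Sh2d1b1 (chromosome 1, 170277320 to 170286769, plus strand) and its neighbour Sh2d1b2 (ENSMUSG00000073494.4; 170232749 to 170253608, plus strand) each encode a small SH2-domain adaptor. The deposited row named Sh2d1b2 is built from 3 transcripts, of which the GENCODE M21 annotation assigns 1 to Sh2d1b1 and 2 to Sh2d1b2. Both coding sequences are 396 bases long, and 359 of these bases (90.7%) are identical, against 55.8% of 373 aligned bases between Sh2d1b1 and Sh2d1a.

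The coding sequences are shown because reads from the 2 genes can be told apart in parts of them and not in others. All 134 coding bases of the first coding exon are identical, and the first 120 are the same run at chr1:170277376-170277495 (Sh2d1b1) and chr1:170232871-170232990 (Sh2d1b2), both on the plus strand of GRCm38.
Sh2d1b1 and Sh2d1b2: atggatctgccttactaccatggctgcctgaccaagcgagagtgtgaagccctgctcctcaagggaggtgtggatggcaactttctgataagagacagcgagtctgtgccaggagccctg
The second coding exon (64 bases) has 2 differences and the fourth (35 bases) has 1. Most differences, 34 of 163 bases, lie in the third coding exon, at chr1:170283135-170283297 in Sh2d1b1 and chr1:170250029-170250191 in Sh2d1b2, where capitals mark the bases that differ.
Sh2d1b1: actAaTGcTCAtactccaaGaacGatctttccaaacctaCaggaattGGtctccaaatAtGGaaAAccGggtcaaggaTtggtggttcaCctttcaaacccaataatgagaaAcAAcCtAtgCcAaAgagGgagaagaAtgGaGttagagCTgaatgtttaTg
Sh2d1b2: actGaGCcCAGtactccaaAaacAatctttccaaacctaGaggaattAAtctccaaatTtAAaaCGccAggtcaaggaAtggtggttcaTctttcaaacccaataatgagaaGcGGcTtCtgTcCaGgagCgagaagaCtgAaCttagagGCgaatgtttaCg

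The shared row had 0.172, 0.285 and 0.229 adjusted TPM in female B cells and 0.256, 0.31 and 0.277 in male B cells. In T cells it ran from 0.00159 to 0.0103. The B cell values were all above the T cell values, and all stayed under the filter on low values, so the row was not tested. The mean was 0.255 ± 0.0487 (SD, n = 6) in B cells, where the upper bound was between 2.89 and 6.4 times the lower. The share of each gene in that row is unknown, and the row's highest upper bound was 0.531.

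**Figure D3:**
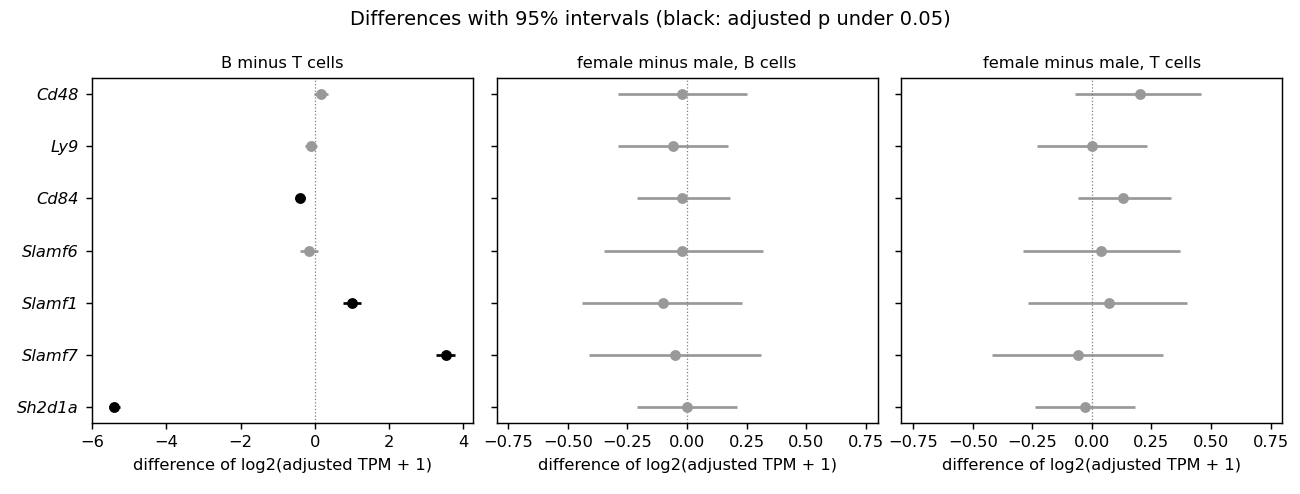
Differences on the log2(adjusted TPM + 1) scale with 95% intervals for 7 genes: B minus T cells, female minus male B cells, and female minus male T cells (the last 2 panels have a finer axis than the first). Black marks an adjusted p under 0.05, seen for Slamf7, Slamf1, Cd84 and Sh2d1a between cell types and for no gene between the sexes.

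The sexes were set against each other inside each cell type. None of the 7 genes was called in B cells or in T cells, where 0.144% and 0.104% of all tested genes were called (18 and 13 genes). With the T cell libraries alone 10 genes were called, and 5 when the replicate number was added as a block. In the main limma fit, which has no replicate block, each of the 7 had an adjusted p of 1 in both cell types. None had an unadjusted p under 0.05 in that fit, against 373 of all tested genes for B cells and 319 for T cells. The T cell count rose to 454 when those libraries were fitted alone, and to 764 when the block was added. The matching B cell counts were 436 and 383. The T cell differences of Cd48 and Cd84 were the widest of the receptors. Cd48 had 103 ± 5.09 (SD, n = 3) adjusted TPM in female and 89.9 ± 12.3 (SD, n = 3) in male T cells, a difference of 0.20 with a 95% interval from -0.07 to 0.46. Cd84 had 85.6 ± 3.59 (SD, n = 3) and 78 ± 4.53 (SD, n = 3), a difference of 0.13 with an interval from -0.06 to 0.33. Female and male libraries overlapped for both genes. Within the pairs of same-numbered T cell libraries Cd84 was higher in the female in 3 of 3, and with the replicate number as a block its difference was 0.13 (SE 0.04, adjusted p = 0.77). In B cells the widest was Slamf1, at -0.10 with an interval from -0.44 to 0.23. The X-linked Sh2d1a had 41.1 ± 5.48 (SD, n = 3) adjusted TPM in female and 41.8 ± 2.94 (SD, n = 3) in male T cells, a difference of -0.03 with an interval from -0.24 to 0.18. Differences up to those bounds are not excluded. Within each cell type the column names carry a further number, of unknown meaning, that differs between the sexes, so whatever it marks cannot be told apart from sex. Female B cells and male T cells share a value of it, and male B cells and female T cells share the other. Whatever the number marks thus also cannot be told apart from a difference of the sex effects between the cell types. In the limma test of whether the sex difference differed between B and T cells, none of the 7 genes was called, and neither was any other tested gene (0%, with 295 genes at an unadjusted p under 0.05). For the 7 genes, the 95% intervals of that difference lay between -0.65 and 0.53.

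Of the 4 other genes of the family and the ligand Cd2, 3 were tested and all 3 were called, with a median difference of 1.03, where 73% of all tested genes were called and their median was -0.09. With 3 genes this count cannot be set apart from that share. Slamf9 (at most 0.0209 in T cells) and Cd244 (at most 0.187) met the filter on low values in the B cells alone. For them a B cell excess was largely set in advance by that filter. Slamf9 and Cd244 were higher in B cells and Cd2 was higher in T cells. Slamf9, a receptor of antigen-presenting cells, had a B cell mean of 3.85 ± 0.686 (SD, n = 6) adjusted TPM and a T cell mean of 0.0156 ± 0.00372 (SD, n = 6) (2.24, SE 0.09, adjusted p = 7.5e-11). Cd244 (2B4), the NK cell receptor for Cd48, had 1.18 ± 0.252 (SD, n = 6) and 0.068 ± 0.0638 (SD, n = 6), a difference of 1.03 (SE 0.08, adjusted p = 8.7e-08). Both were low beside the receptors above. Cd2, an adhesion receptor that binds Cd48 in the mouse, was abundant in both, with 129 ± 4.98 (SD, n = 6) for B cells and 269 ± 30.1 (SD, n = 6) for T cells (-1.05, SE 0.08, adjusted p = 7.1e-08). Slamf8, a receptor of macrophages, was not tested and ran from 0.457 to 1.32 in B cells, with 0.0658 its highest T cell value.

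Of 19 signalling genes downstream of the receptors, 16 were called, 8 higher in each cell type, with a median difference of 0.06. This count is near the 73% called among all tested genes, so it says nothing particular of the list, and the values of its members follow. Lyn and Plcg2 met the filter on low values in the B cells alone, and Prkcq, Lat and Dok2 in the T cells alone. Among kinases, Fyn, the partner of SAP, had a mean of 17.9 ± 2.13 (SD, n = 6) adjusted TPM in B cells, against 122 ± 7.72 (SD, n = 6) for T cells, a difference of -2.70 (adjusted p = 3.4e-12). Lck, the main Src family kinase of T cells, had -4.71 and Prkcq, a protein kinase C that SAP is known to bind, -7.16. Lyn, the main Src family kinase of B cells, was at 202 ± 10.8 (SD, n = 6) in B cells, with 1.08 its highest T cell value (7.29, adjusted p = 4.9e-14). Lyn was above Lck in every B cell library and Lck above Lyn in every T cell library. Csk, which restrains Src kinases, was higher in B cells by 0.74.

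Of the phosphatases that the tail motifs can recruit, 2 of 3 were higher in B cells, as were 31.4% of all tested genes. A count over 3 genes cannot be told apart from that share. Ptpn6 (SHP-1) had means of 352 ± 20.4 (SD, n = 6) and 97.3 ± 14.4 (SD, n = 6) adjusted TPM for B and T cells, a difference of 1.86 (adjusted p = 1.6e-09). Inpp5d (SHIP-1) had 90.4 ± 4.57 (SD, n = 6) and 35.8 ± 2.05 (SD, n = 6), a difference of 1.31 (adjusted p = 1.7e-10). Ptpn11 (SHP-2) did not pass the test, at 18.1 ± 2.07 (SD, n = 6) and 17.3 ± 0.567 (SD, n = 6), with an interval of the difference from -0.09 to 0.21. The phospholipases and docking proteins were paired by cell type: Plcg2 (6.71) and Dok1 (0.91) were higher in B cells, and Plcg1 (-3.05) and Dok2 (-4.43) in T cells. The adaptors Sh3bp2 (3.08), which binds the tail of CD244, and Lat (-7.35), the scaffold of the T cell receptor, also differed in opposite directions. The remaining genes lay between -0.28 and 0.14. Of these, Rasa1 (-0.28), Becn1 (-0.14) and Arhgef7 (0.14) were called, and each lost its call under more than 1 alternative. Vav1 (0.11, adjusted p = 0.1) and Pik3c3 (-0.06, adjusted p = 0.38) were not called.

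**Figure D4:**
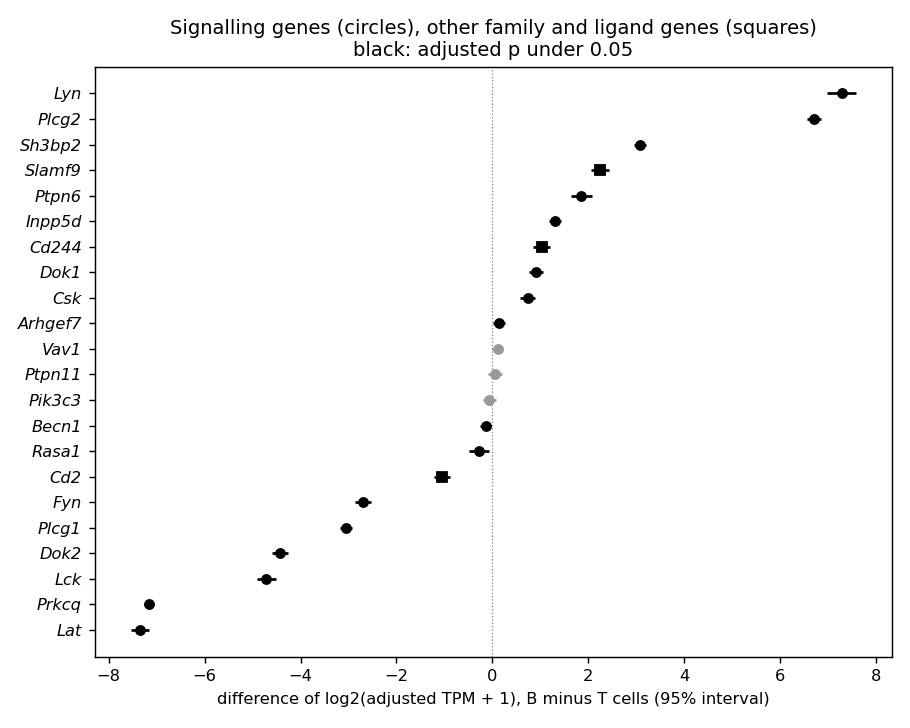
Differences between B and T cells with 95% intervals for 19 signalling genes (circles) and 3 other family and ligand genes (squares), ordered by size, with black for an adjusted p under 0.05. Lyn (7.29) and Plcg2 (6.71) lie at one end and Lat (-7.35) and Prkcq (-7.16) at the other.

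The 6 receptors are neighbours in a stretch of 365 kb on chromosome 1, 171588624 to 171953170, in the order Ly9, Slamf7, Cd48, Slamf1, Cd84 and Slamf6. Receptors next to each other did not move alike. Slamf7, with a difference of 3.54, lies between Ly9 (-0.10) and Cd48 (0.17), and Slamf1 (1.01) lies between Cd48 and Cd84 (-0.40). Of 12 protein-coding neighbours inside and beside the cluster, 8 were tested and 4 were called, all higher in B cells, with a median difference of 0.30. Among all tested genes 73% were called and 31.4% were higher in B cells. The 4 neighbours were Cd244 (1.03), Vangl2 (0.98), the transcription factor Usf1 (0.65) and the gamma-secretase subunit Ncstn (0.30). Cd244 and Vangl2 met the filter on low values in the B cells alone. Alyref2, Gm10521, Copa and Pex19 were not called, and Alyref2 and Pex19 passed the test, higher in B cells, under median-ratio scaling (0.37 and 0.16) and under rescaling to a total of 1000000 (0.63 and 0.45).

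**Figure D5:**
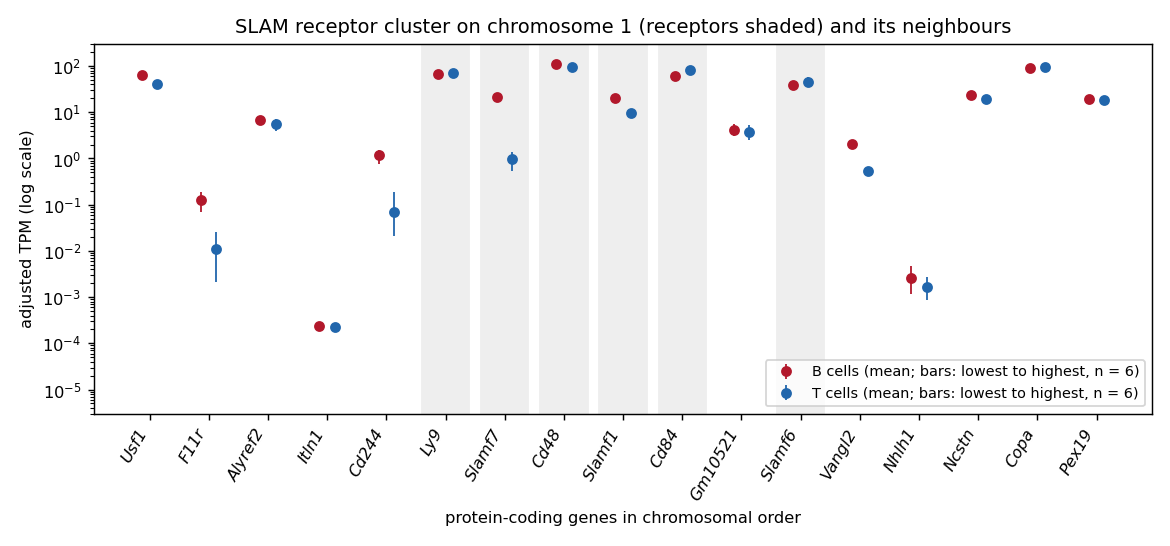
Adjusted TPM (log scale) in B and T cells of the 6 receptors (shaded) and 11 protein-coding neighbours in their order along chromosome 1, as means with bars from the lowest to the highest of 6 libraries. Slamf7 drops from 21.6 in B cells to 0.971 in T cells between Ly9 and Cd48, whose means stay between 66.6 and 109 in both.

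Over the 12 libraries, the tested genes whose values followed each receptor most closely were found by Pearson's r of log2 values, which the gap between the 2 cell types dominates. They were Rnf216 and Fam126a for Slamf7 (both 0.998), Sema4d and Bcl9 for Slamf1 (both 0.983), and L1cam (0.960) and Magi3 (0.956) for Cd84. For the 3 receptors that were not called the values were lower, with Rab2b (0.897) first for Cd48, Cep192 (0.939) for Slamf6 and Cdc26 (0.944) for Ly9. Trat1 and Tmie came first for Sh2d1a, both with r of 1.000, and Sh2d1a itself is near 0 in all 6 B cell libraries.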

How the data were processed

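RNA was measured in 12 libraries, 3 for each of 4 groups taken from the labels. Some label fields name the material genomic DNA, while the protocol and the table are of RNA. Per the labels, ribosomal RNA was removed, libraries were strand-specific and carried ERCC spike-ins, and the submitters' processing notes name Trim Galore, FastQC, STAR and the build mm10. How transcripts were quantified and adjusted, and which level the interval has, is not given in the sources used here. The deposited signal is an adjusted TPM with a lower and an upper bound per library, not read counts, so depth is unknown and precision was read from the bounds.

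Differences were tested with limma (version 3.58.1, R 4.3.3) on log2(adjusted TPM + 1), fitting the 4 group means together with a trended variance, for genes with at least 1 in at least 3 libraries. P-values were adjusted (Benjamini-Hochberg) over all 12520 genes. The fit for B against T cells was tested on simulated data with normal noise and far fewer changed genes than here. That setting does not bear on the scaling between libraries. Of the table's genes, 97.9% matched GENCODE M21 (GRCm38). Promoters came from RefSeq, where 6 of the 8 genes matched (Ly9 and Sh2d1a did not), and coding sequences from GENCODE. Python 3.11.15, numpy 2.4.6, pandas 2.3.3 and matplotlib 3.10.9 were used.

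The genes and lists were chosen with earlier results of these data known, and all members of each list were kept. The most similar genes were taken as those with the highest r over the libraries. Same-numbered female and male T cell libraries deviated together (r = 0.721, 0.548 and 0.521 for numbers 4, 5 and 6). The labels state no pairing, so the replicate number was used as a block only among the alternatives. The alternatives were another pseudocount, no filter, 3 other scalings, the authors' bounds, each sex or cell type alone, the replicate block and leaving out each library.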

Additional observations from a re-analysis of the deposited data

How the results depend on the processing

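Slamf1, Slamf7 and Sh2d1a kept their direction and their call between B and T cells in all 21 alternatives, with differences from 0.92 to 1.38, from 3.39 to 4.42 and from -8.69 to -5.29. Cd84 lost its call in 1 alternative, Cd48 gained one in 5 and Slamf6 in 1, and none of the 7 genes was called between the sexes in any. The count over all genes between B and T cells was 24591 of 41128 without the filter on low values. Every fit without the filter tests those 41128 genes, against 12520 in the main fit. The added genes did not reach 1 adjusted TPM in 3 libraries. Counts without the filter therefore cannot be set directly beside the main counts, and they do not show sex differences among the 12520 genes. For the sexes within B cells the count of 18 became 36 with libraries rescaled to a total of 1000000. It was 5 with the B cell libraries alone and, without the filter, 10985 of 41128 genes. For the sexes within T cells the count of 13 became 24 with a pseudocount of 0.1 and 23 with the rescaled total. It was 8 with the authors' lower bound and, without the filter, 10607 of 41128 genes. For the difference between sex effects the count of 0 became 1 with a pseudocount of 0.1 and 16 with the rescaled total. It was 1 with quantile normalization and, without the filter, 11201 of 41128 genes. When each library was left out it ran from 0 to 3 (3 without female T cell 6). The cause of these changes was not tested. Each cell type was also fitted alone, with and without the replicate number as a block. Between the sexes in T cells, 5 genes were called with the block and 10 without it. In B cells 5 were called either way, and the block changed no call of the 7 genes. Same-numbered female and male B cell libraries did not deviate together (r = -0.169, -0.038 and -0.337), and the labels do not say what the numbers mean. Rasa1 and Becn1 turned sign with the rescaled total (0.10 and 0.24). With depth unknown, values near the floor, such as Sh2d1a in B cells and the Sh2d1b2 row, are limited by their wide bounds.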
